A study of Mus musculus with 2 samples.

Results

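The genes described here are 9 transcription regulators of 3 families: the E proteins Tcf3, Tcf4 and Tcf12, the Id proteins Id1, Id2 and Id3, and the TCF/LEF factors Tcf7, Lef1 and Tcf7l2. They were taken from the gene tables by symbol, and they are 9 of 16428 genes with a counted read in at least 1 library. Tcf3 and Tcf4 were checked by Entrez gene identifier (21423 and 21413), and they are the E proteins also known as E2A and E2-2. The factor Tcf7l2, for which Tcf4 is an older synonym, has its own identifier (21416).

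The tables come from macrophages sorted from C57BL/6J mice with acute myeloid leukaemia driven by the MLL-AF9 fusion. Each mouse, 6 to 8 weeks old, had received 500000 leukaemia cells carrying a green fluorescent label and no irradiation, and the tissues were taken at day 15 of a disease that ended in death within 25 to 30 days. Bone marrow and spleen each gave 1 RNA-seq library. The transplanted leukaemia, the strain, the age and the day were common to the libraries, so tissue is the only labelled difference, and samples of healthy mice were not analysed here. The gates of the sort, and how many mice a library pools, were not given in the sources used here.

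E proteins are basic helix-loop-helix activators that bind the E-box, a short DNA motif, as dimers with each other or with tissue-restricted partners. Id proteins have the helix-loop-helix but lack the basic DNA-binding region, so an E protein paired with an Id protein does not bind DNA. The balance of these families steers B cell, T cell, innate lymphoid cell and dendritic cell fates. TCF/LEF factors bind DNA through an HMG box and carry out the transcriptional response to Wnt signals when beta-catenin joins them. Tcf7 encodes TCF-1, which with Lef1 is best known from T cell development and from naive and memory T cells.

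Sequence upstream of 3 genes higher in spleen is shown because E proteins and TCF/LEF factors act through short DNA words. Of the 9 genes, 7 had promoter windows in the RefSeq table of GRCm38.p6, with 14 start sites in all. Tcf4 and Id1 had none. Each window held 300 bases, 250 before and 50 after the start. The stretches run from the window's edge towards the most upstream listed start of each gene, and bases that GENCODE M21 places in an exon of that gene were left out. In that annotation the whole Lef1 stretch lies in an exon of Gm43352, a gene on the opposite strand. Capitals mark E-box words, CANNTG. Lef1 and Id2 each held 1, and Tcf7l2 is shown as a gene with none.
Lef1, chr3:131110047-131110296, plus strand: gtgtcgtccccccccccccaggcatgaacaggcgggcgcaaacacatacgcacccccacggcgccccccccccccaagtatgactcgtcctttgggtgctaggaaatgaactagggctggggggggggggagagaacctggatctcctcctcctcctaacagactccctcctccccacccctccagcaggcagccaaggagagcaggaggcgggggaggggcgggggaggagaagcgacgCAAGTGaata
Id2, chr12:25096254-25096342, minus strand: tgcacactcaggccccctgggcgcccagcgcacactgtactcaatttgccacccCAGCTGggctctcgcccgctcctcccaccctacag
Tcf7l2, chr19:55741560-55741809, plus strand: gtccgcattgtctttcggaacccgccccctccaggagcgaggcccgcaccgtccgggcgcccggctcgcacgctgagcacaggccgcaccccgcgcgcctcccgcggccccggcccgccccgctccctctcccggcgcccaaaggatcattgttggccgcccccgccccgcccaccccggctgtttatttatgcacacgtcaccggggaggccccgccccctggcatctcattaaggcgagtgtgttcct

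The word in Lef1 was CAAGTG, 10 bases before the listed start, and the word in Id2 was CAGCTG, 196 bases before its listed start. GENCODE M21 places 161 of the bases before the Id2 start in an exon of Id2. In the Lef1 window it places an exon of Gm43352 and none of Lef1. The window of Tcf7 also held CAGCTG, 159 bases before its most upstream listed start. There an ATG 165 bases before the start opened a reading frame of 55 codons with no stop up to the start. The CAGCTG lies inside that frame, so it may be coding sequence, and whether those bases are transcribed was not tested. The bases of the Tcf7 window are not printed for that reason. The windows of Id3 and Tcf7l2 held no CANNTG.

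CANNTG, which reads the same on either strand, was found in 11 of the members' 14 windows, against 72.3% of 32817 promoter windows in the table. The windows of starts 1 and 2 of Lef1 overlap and count the same CAAGTG. GENCODE M21 places the whole window of Id3, and that of start 3 of Tcf12, in an exon of the same gene. CAGCTG, a form that CANNTG covers, was in 4 of 14 windows, against 16.3% of all windows. The Tcf7 word inside the open reading frame is in both counts. Longer reading frames with no stop up to the start also opened upstream of Tcf3 and of start 1 of Tcf12. The CAGCTG of that Tcf12 window lies inside its frame and is in both counts. The CACTTG of Tcf3 lies inside its frame and is in the CANNTG count. Whether the bases of these frames are transcribed was not tested. The TCF/LEF words CTTTGAT and CTTTGAA, searched on both strands, were in 0 of 14 windows, against 3.73% and 5.14% of all windows.

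After scaling, the marrow library stood for 9405947 reads and the spleen library for 8457857. Levels are in CPM, counts scaled to these library sizes, and 12970 genes counted as measured, with 1 CPM and 10 reads or more in 1 or both of the libraries. No tissue had a second library, so the differences below are between these libraries, and the 95% intervals of folds and shares cover counting error only. Macrophage markers were present in both, with all 18 listed genes detected and a summed level of 702 CPM in marrow and 1564 CPM in spleen. Markers of other cells were present too. Neutrophil and precursor markers summed to 48408 CPM in marrow and 2230 CPM in spleen, with Ly6g at 0 reads in both. T cell markers summed to 272 and 1923 CPM, and mature B cell markers to 488 and 5551 CPM, with none of these genes at 0. In such pooled RNA, fewer cells of a type and less RNA per cell cannot be told apart.

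All 9 genes were measured, and the families divided. The 3 E proteins lay within 2-fold between the libraries, the 3 TCF/LEF factors were higher in spleen, and the Id proteins split, with Id1 higher in marrow and Id2 and Id3 higher in spleen. A gene counted as higher where the difference on log2(CPM + 1), bone marrow minus spleen, was at least 2-fold. By that rule 5 of the 9 genes were higher in spleen, where 14.6% of measured genes were, and 1 of 9 was higher in marrow, where 14.1% were. In either direction 6 of 9 passed, against 28.8% of measured genes. The median difference of the 9 genes was -1.06 on the log2 scale, and that of all measured genes was 0.03.

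**Figure D1:**
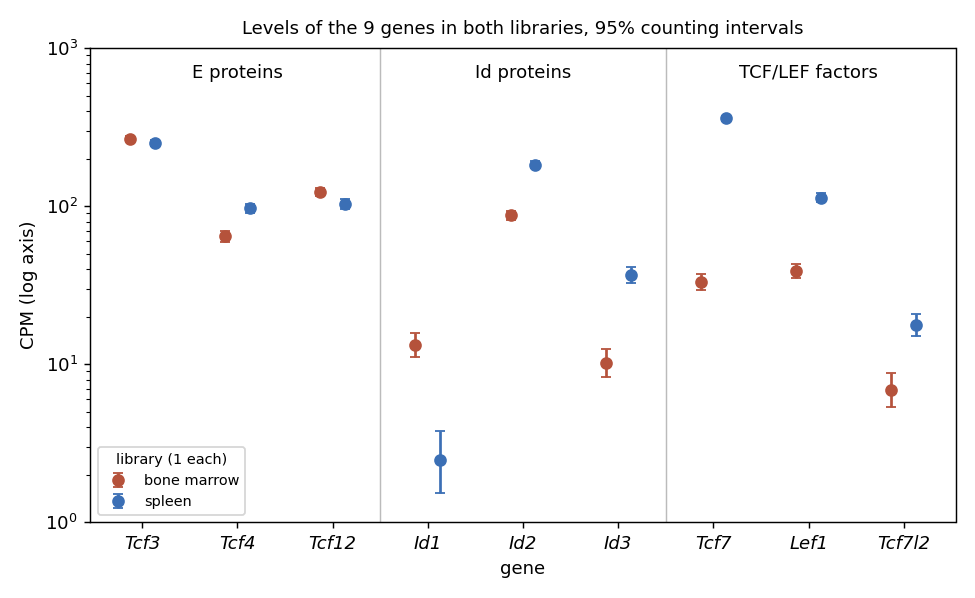
Level of each gene in CPM (log axis) in the bone marrow and spleen libraries, 1 library each, with exact 95% Poisson intervals for counting error. Each E protein lies within 2-fold between the libraries, Id1 is higher in marrow, and Tcf7 shows the widest gap, from 33.3 CPM in marrow to 361 CPM in spleen.

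Among the E proteins, Tcf3 had the highest level per length and the smallest difference. Tcf3, which is required for B cell development, had 2522 reads in marrow and 2118 in spleen, or 268 and 250 CPM. The fold was 1.07 towards marrow (95% interval 1.01 to 1.13), and the log2 difference was 0.10, or 0.03 with library totals alone. Tcf12, known as HEB and a dimer partner of Tcf3 in developing thymocytes, was at 123 CPM in marrow and 103 CPM in spleen, 1.19-fold higher in marrow (1.09 to 1.30). Tcf4, the E protein that maintains plasmacytoid dendritic cells and that B cells also express, leaned the other way. It was at 64.5 CPM in marrow and 96.8 CPM in spleen, higher in spleen by a factor of 1.35 to 1.67 (95% interval), and its log2 difference of -0.58 was inside the 2-fold limit. The counting intervals of the Tcf4 levels did not overlap, at 59.5 to 69.9 CPM against 90.3 to 104 CPM. Those of Tcf12 did not overlap either, at 116 to 130 CPM in marrow against 96.7 to 111 CPM in spleen.

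Summed over the family and scaled to gene length as RPKM (reads scaled to gene length and library total), the E protein level was 113 in each library, or 115 in marrow and 110 in spleen with TMM scaling. The makeup shifted. Tcf4 supplied 14.2% of the family's 4283 reads in marrow (exact interval 13.1 to 15.3) and 21.5% of its 3812 reads in spleen (20.2 to 22.8). The share of Tcf12 was 26.9% in marrow and 23.0% in spleen, and that of Tcf3 was 58.9% and 55.6%. Per length, Tcf3 stood 9.34 times above Tcf4 in marrow and 5.81 times in spleen.

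The plasmacytoid dendritic cell markers beside Tcf4 did not move as a block. Of 13 listed, all detected, 8 differed by less than 2-fold and the remaining 5 were higher in spleen, with a median log2 difference of -0.81 and sums of 482 and 1378 CPM. Ly6d, Tlr9 and Pacsin1 had the widest differences on log2(CPM + 1), at 250, 128 and 36.3 CPM in spleen but 21.9, 22.3 and 6.17 CPM in marrow, and Ly6d and Tlr9 are B cell genes as well. Siglech, a defining surface lectin of these cells that was picked out after its values were seen, was at 26.0 CPM in marrow and 23.8 CPM in spleen, a fold of 1.10 (0.906 to 1.33) that includes equal levels. The 12 mature B cell markers were all higher in spleen (median -3.61). The part of either cell type in the Tcf4 difference was not tested.

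Per length, Id2 had the highest level of the Id genes in each library. Id2, which innate lymphoid cells and conventional dendritic cells require, had 823 reads in marrow and 1548 in spleen, or 87.5 and 183 CPM. It was 2.09-fold higher in spleen (1.92 to 2.28), and its log2 difference of -1.06 was just past the limit, with an interval that reached below 2-fold. Among all measured genes 13.7% had a log2 difference at least as far towards spleen.

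Id3, which is induced by antigen receptor signals in lymphocytes and is also expressed in resident macrophages, showed a wider gap. It had 96 reads in marrow and 312 in spleen, or 10.2 and 36.9 CPM, and was 3.61-fold higher in spleen (2.87 to 4.59). Reads covered 84.9% of the gene's length in marrow and 97.7% in spleen, per the deposited coverage column.

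Id1 went the opposite way to its relatives. Id1, a target of BMP and Smad signals that is known in stem and progenitor cells and endothelium, had 125 reads in marrow and 21 in spleen. Its level was 13.3 CPM in marrow and 2.48 CPM in spleen, 5.35-fold higher in marrow (3.35 to 8.95), and 4.24% of measured genes had a log2 difference at least as far in that direction. Id4, the remaining Id family gene, was listed in neither table, so its level may be as high as 0.319 CPM (marrow) and 0.355 CPM (spleen), the limit of 3 reads that a count of 0 leaves.

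The makeup of the pair Id1 and Id3 differed between the libraries. Of the 221 reads of the pair in marrow, 56.6% were Id1 reads (exact interval 49.7 to 63.2). Of the 333 in spleen, 6.31% were (3.95 to 9.48), and these intervals do not overlap. Per length, the ratio of Id1 to Id3 went from 1.38 in marrow to 0.0712 in spleen. Id2 made up 72.9% of the summed Id RPKM in marrow and 77.6% in spleen.

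Summed Id RPKM was 90.9 in marrow and 187 in spleen, a 2.06-fold difference, while the E protein sum was level. The ratio of summed E protein RPKM to summed Id RPKM was therefore 1.24 in marrow and 0.603 in spleen. Id2 makes up most of the Id sum, and the ratio compares transcripts over whole libraries and not proteins within cells.

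**Figure D2:**
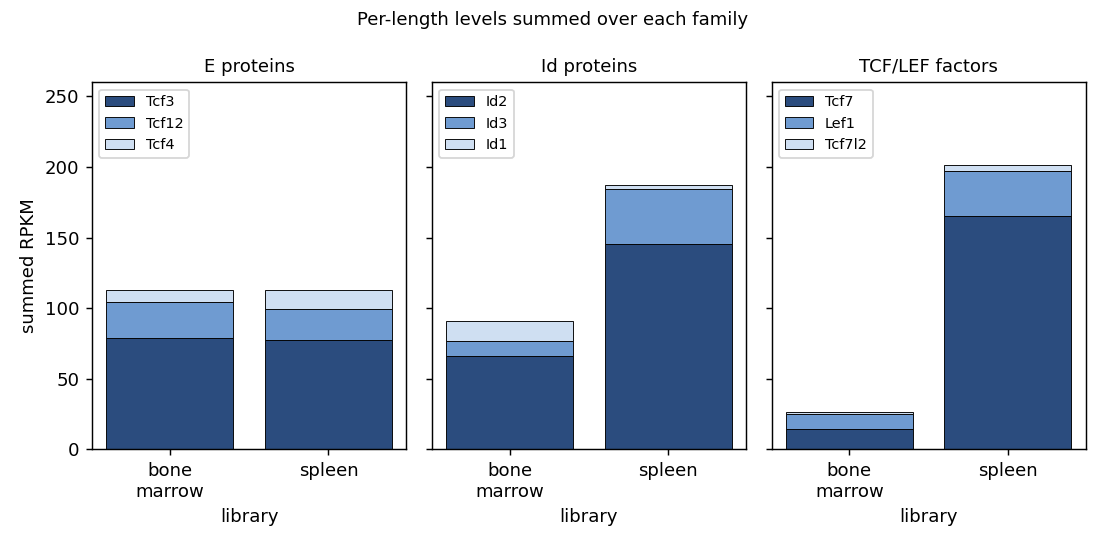
Summed RPKM (deposited values, level per gene length) of each family in the bone marrow and spleen libraries, stacked by gene. The E protein bars are equal at 113, the Id bars are 90.9 and 187, and the TCF/LEF bars are 26.5 and 201, mostly from Tcf7.

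Markers of cells that express Id2 or Id3 were higher in spleen or within 2-fold. NK and innate lymphoid cell markers, none at 0, were all detected (404 and 721 CPM in sum), and 8 of 13 were higher in spleen with 0 higher in marrow (median -1.12). Gzma and Prf1, which encode a granzyme and perforin of killer cells, were at 85.5 and 35.8 CPM in the spleen library and at 18.8 and 10.8 CPM in the marrow library. Ncr1, the NK cell receptor NKp46, picked out after its values were seen, was at 25.8 CPM in marrow and 27.9 CPM in spleen. Conventional dendritic cell markers, also all detected (199 and 1013 CPM), were higher in spleen in 9 of 12 (median -2.63), with Fscn1 at 104 CPM against 2.45. Macrophage markers were higher in spleen in 11 of 18 and in marrow in 0 (median -1.14), with Spic, the regulator of red pulp macrophages, at 38.2 CPM in spleen against 4.15 and Cd5l at 71.8 against 8.51. Their part in the Id2 and Id3 differences was not tested.

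On the side of Id1, stem and progenitor markers were higher in marrow in 11 of 13 (median 2.73, sums of 1945 and 432 CPM, Mecom at 0 in spleen). Cd34, a surface protein of progenitors and endothelium, was at 257 CPM in marrow and 6.15 CPM in spleen. Endothelial and stromal markers were higher in marrow in 6 of the 10 measured and in spleen in 1 (median 1.97), although their sums were 173 and 191 CPM, and Emcn, Cxcl12 and Col3a1 were at 0 in spleen. That median ranged from 0.69 on the deposited RPKM to 3.49 with a pseudocount of 0.1 CPM. Megakaryocyte markers, none at 0, were higher in marrow in 7 of 10 and summed to 414 and 92.2 CPM. Neutrophil and precursor markers leaned furthest to marrow, with all 14 measured higher there (median 4.26, sums of 48408 and 2230 CPM). The part of these cells, or of the transplanted leukaemia cells, in the Id1 difference was not tested.

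The genes of BMP signalling, which induces Id genes, did not shift together. Of 20 listed BMP ligands, receptors and Smads, 16 were measured, 3 were higher in marrow, 4 in spleen and 9 lay within 2-fold (median 0.10). Eng, a co-receptor of endothelium and progenitors, was at 77.7 CPM in marrow and 12.4 CPM in spleen, and Bmpr1a, a type I receptor, was at 6.27 and 1.89 CPM. Smad7, the inhibitory Smad, was at 22.0 CPM in marrow and 90.7 CPM in spleen. Smad4, the shared Smad, was within 2-fold at 63.2 and 97.4 CPM.

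Of the 3 families, the TCF/LEF factors had the widest difference in summed level. Their summed RPKM was 26.5 in marrow and 201 in spleen, a 7.58-fold difference. Tcf7 had 313 reads in marrow and 3054 in spleen, or 33.3 and 361 CPM, and was 10.9-fold higher in spleen (9.66 to 12.2). Only 0.709% of measured genes had a log2 difference at least as far towards spleen. Per length, Tcf7 was in the top 2.43% of measured genes in spleen and in the top 41.8% in marrow.

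Lef1, the relative that B and T cell precursors and mature T cells express, had 366 reads in marrow and 960 in spleen. At 38.9 and 114 CPM it was 2.92-fold higher in spleen (2.58 to 3.30), an interval that lies wholly below that of Tcf7. Of the combined Tcf7 and Lef1 reads, Tcf7 took 46.1% in marrow (exact interval 42.3 to 49.9) and 76.1% in spleen (74.7 to 77.4). Per length, the ratio of Tcf7 to Lef1 was 1.40 in marrow and 5.20 in spleen. Exons of Gm43352 overlap 1208 of the 8788 exon bases of Lef1 on the opposite strand in GENCODE M21. The strand setting of the counting was not given in the sources used here. Reads of Lef1 and Gm43352 over the shared bases therefore cannot be told apart. How many shared bases lie in the counted Lef1 length of 3657 bases was not tested. No gene named Gm43352 was listed for either library, and whether the counting annotation held it was not given in the sources used here. No other member shares exon bases with another gene in GENCODE M21.

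Tcf7l2, the main Wnt effector outside lymphocytes and a factor of the macrophage and monocyte lineage, was the scarcest TCF/LEF member. It had 65 reads in marrow and 150 in spleen, or 6.91 and 17.7 CPM, and was 2.57-fold higher in spleen (1.91 to 3.49). Its log2 difference was -1.24, and -0.93 with a pseudocount of 5 CPM, which ends the 2-fold call. Reads covered 48.8% of its length in marrow and 82.8% in spleen. Tcf7l1, the family's remaining gene, had 12 and 16 reads, a fold of 1.48 towards spleen (0.658 to 3.43) that could not be told from equal levels at this depth.

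**Figure D3:**
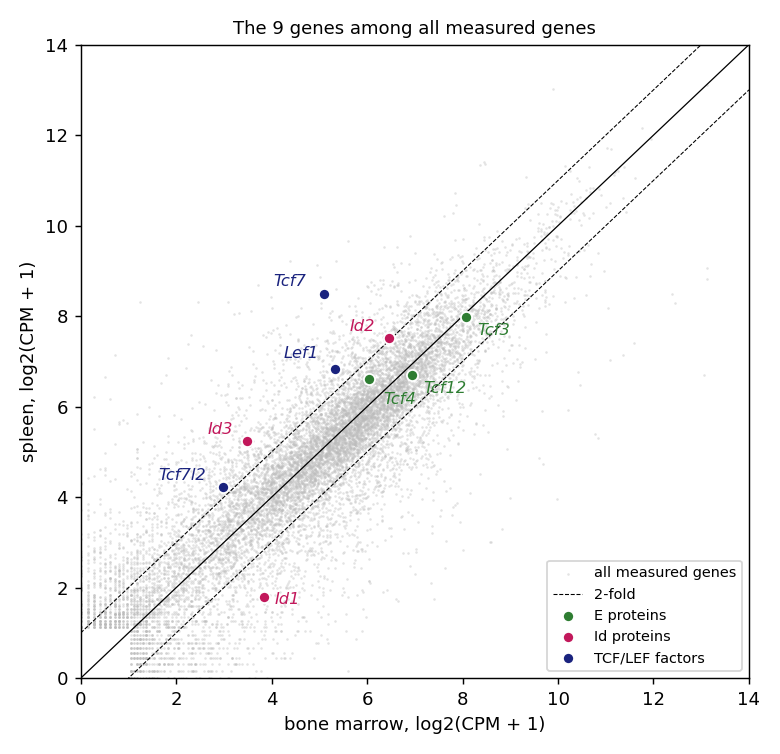
Each measured gene (grey) by its level in marrow (x axis) and in spleen (y axis), both as log2(CPM + 1), with the 9 genes coloured by family, a solid line of equal levels and dashed lines at 2-fold. Tcf7, Lef1, Tcf7l2, Id2 and Id3 lie above the upper dashed line, Id1 below the lower one, and the E proteins between them.

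T cell markers were higher in spleen as Tcf7 and Lef1 were. All 17 listed were past 2-fold towards spleen, with a median log2 difference of -2.97 and a range from -3.67 to -1.70. The Tcf7 difference of -3.40 lies inside that range, and also inside those of mature B cell, dendritic cell and macrophage markers. It lies inside that of the naive and memory T cell genes as well (-4.84 to -0.91). The Lef1 difference, -1.52, lies outside the T cell range but inside that of the naive and memory T cell genes. It also lies inside those of B cell precursor, plasma cell, NK and innate lymphoid, dendritic cell, macrophage and erythroid markers. Cd8b1, Cd5 and Cd4 had the widest differences on log2(CPM + 1), at 109, 103 and 221 CPM in spleen but 7.65, 7.97 and 18.7 CPM in marrow. Of 10 naive and memory T cell genes, 9 were higher in spleen (median -1.89). Ccr7 and S1pr1, receptors for lymph node entry and for exit into blood that other lymphocytes share, were at 264 and 290 CPM in spleen but at 8.29 and 15.2 CPM in marrow.

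B cell precursor markers went the other way, with 8 of 9 higher in marrow (median 2.58, sums of 926 and 278 CPM, Vpreb2 at 0 in spleen). Il7r was the marker higher in spleen. Myb, whose difference is the median, was at 569 and 94.0 CPM, and Sox4 was at 114 and 17.0 CPM. Myb and Sox4 are also in the stem and progenitor list. Igll1, the surrogate light chain, had 444 reads in marrow and 1 in spleen, and Dntt, the terminal transferase of early lymphocytes, was at 64.7 and 3.43 CPM. The part of T cells, of B cell precursors or of any other cell type in the Tcf7 and Lef1 differences was not tested.

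**Figure D4:**
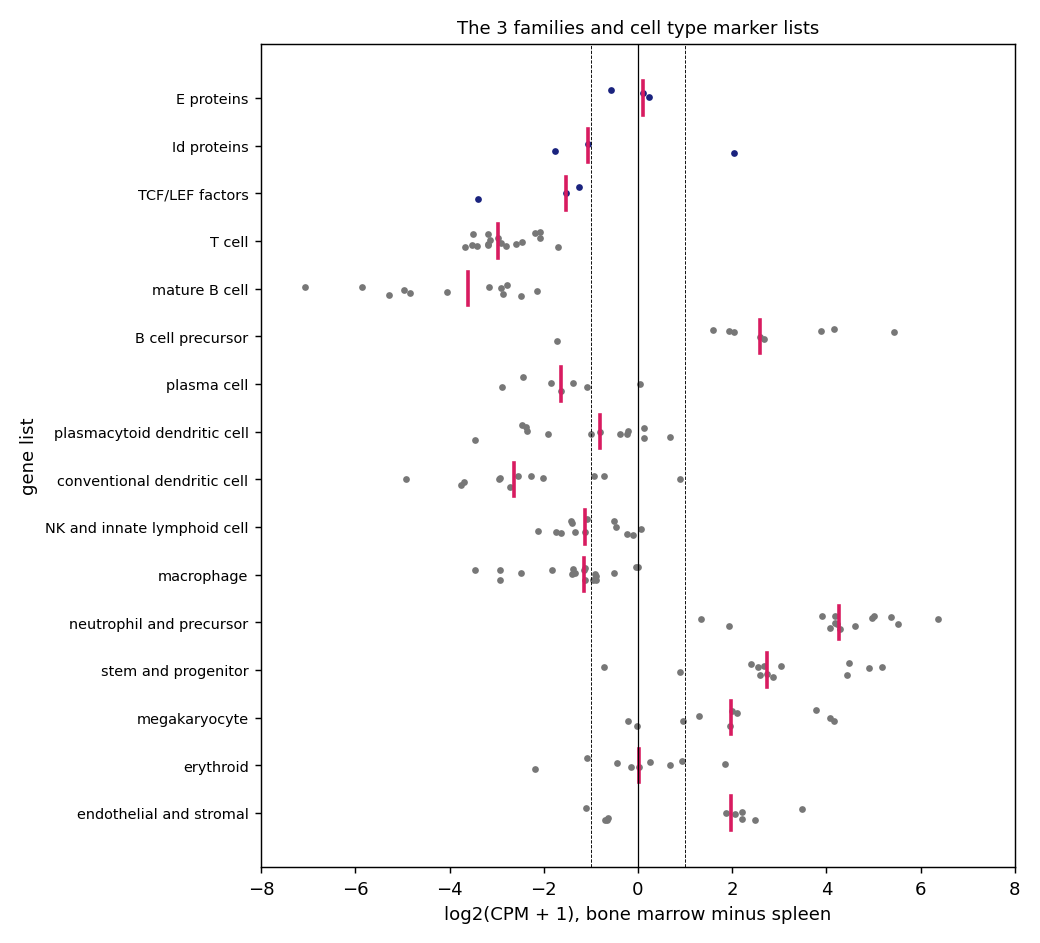
Difference between bone marrow and spleen on log2(CPM + 1) for each measured gene of the 3 families (blue) and of the cell type marker lists (grey), with each list's median as a pink bar and dashed lines at 2-fold. T cell and mature B cell markers sit towards spleen with Tcf7, and neutrophil, progenitor and B cell precursor markers towards marrow with Id1.

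Upstream of the TCF/LEF factors, most Wnt pathway components were even while several receptors were higher in marrow. Of 15 measured Wnt receptors and receptor regulators, 6 were higher in marrow, 1 in spleen and 8 lay within 2-fold (median 0.67). The median was 0.23 with a pseudocount of 5 CPM, 0.28 on the deposited RPKM and -0.55 with a floor of 10 CPM and 100 reads, so its direction depends on low genes. Lrp5, a Wnt co-receptor, was at 103 CPM in marrow and 29.9 CPM in spleen, and Fzd6, a Frizzled receptor, was at 9.25 and 1.66 CPM. Lgr5, an R-spondin receptor and itself a Wnt target, had 151 reads in marrow and 3 in spleen, a ratio of 45.3 (15.2 to 222). Of 21 ligand and secretion genes only 3 were measured. Wls, the carrier that brings Wnt proteins to the cell surface, was 3.37-fold higher in marrow (2.89 to 3.94), Wnt10a had 3 reads in marrow and 19 in spleen, and Wnt4 had 11 in each.

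In the beta-catenin relay, 12 of 13 genes lay within 2-fold and 1 was higher in spleen (median -0.19). That gene was Axin2, a scaffold of the destruction complex and a standard readout of Wnt signalling, at 2.87 CPM in marrow and 18.2 CPM in spleen, where it was 6.34-fold higher (4.19 to 9.94). Coactivators and corepressors were even in 10 of 12. Bcl9l, which bridges beta-catenin to its coactivators, was 3.47-fold higher in spleen (3.04 to 3.97), and Ctbp2, a corepressor, was 5.23-fold higher in marrow (4.24 to 6.50).

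Listed beta-catenin target genes did not follow the TCF/LEF factors as a group. Of 9 measured, 4 were higher in marrow and 2 in spleen (median 0.21). Ccnd1, cyclin D1, was at 22.5 CPM in marrow and 255 CPM in spleen, where it was 11.3-fold higher (9.82 to 13.1), and Axin2 was the other gene higher in spleen. Lgr5, Tnfrsf19 (18.4 and 2.01 CPM), Myc (253 and 118 CPM) and Sox4 (114 and 17.0 CPM), the last picked out after its values were seen, were higher in marrow. Myc, Ccnd1 and Sox4 respond to many signals besides Wnt.

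**Figure D5:**
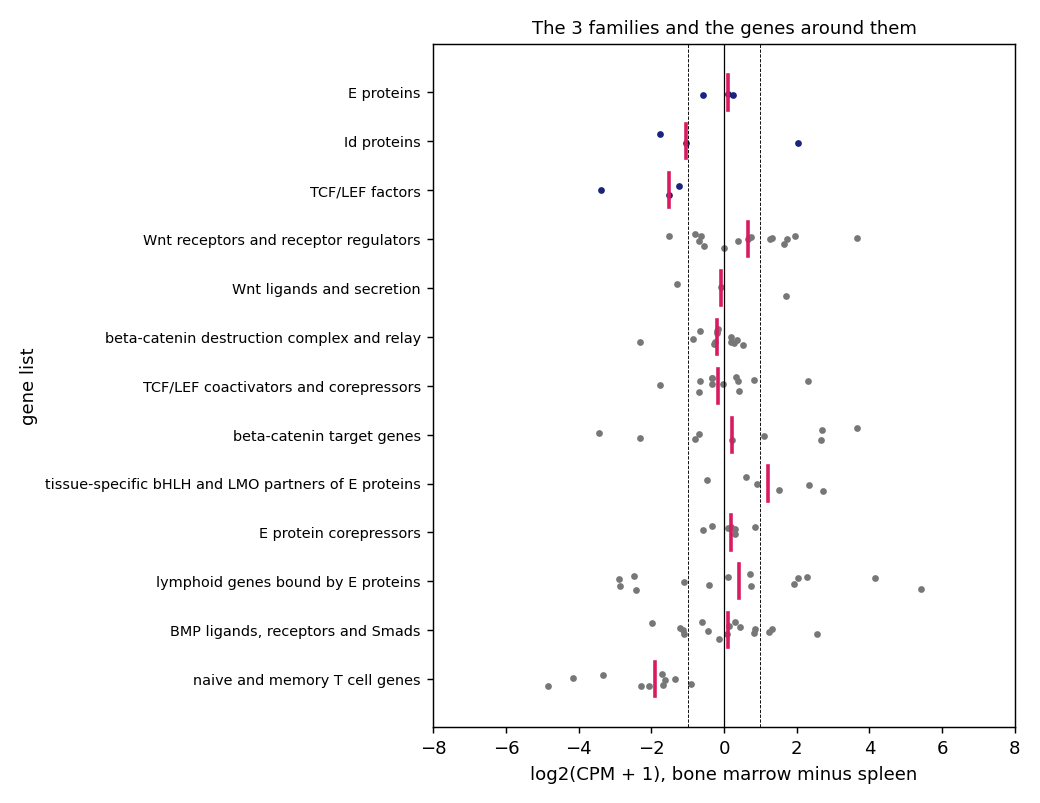
Difference between bone marrow and spleen on log2(CPM + 1) for each measured gene of the 3 families (blue) and of the lists of pathway genes (grey), with each list's median as a pink bar and dashed lines at 2-fold. The relay, coactivator and E protein corepressor lists centre near 0, the bHLH and LMO partners at 1.20, and the naive and memory T cell genes at -1.89.

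Around the E proteins, several partners were higher in marrow and corepressors lay within 2-fold. Of 6 measured tissue-specific bHLH and LMO partners, 3 were higher in marrow and 0 in spleen (median 1.20). The median was 0.32 over all listed partners with a read and 0.91 with a floor of 10 CPM and 100 reads. Tal1, the partner that directs blood stem cell and erythroid programmes, was at 78.1 CPM in marrow and 11.0 CPM in spleen, 7.11-fold higher (5.72 to 8.92). Lmo1 was at 9.99 and 1.18 CPM, and Lmo4 at 180 and 63.0 CPM. Lmo2, the bridging protein of the Tal1 complex, was 1.89-fold higher in marrow (1.75 to 2.03), within the limit. Stem and progenitor markers were higher in the same library, and their part in these ratios was not tested. All 7 measured corepressors lay within 2-fold, including Cbfa2t3 at 131 and 198 CPM and Hdac2 at 123 and 68.0 CPM.

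The listed lymphoid genes that E proteins bind divided evenly. Of 14 measured, 5 were higher in marrow, 5 in spleen and 4 lay within 2-fold (median 0.41). Igll1 and Vpreb1 of the pre-B receptor were higher in marrow, Vpreb1 at 29.7 and 0.709 CPM. Cd79a and Cd79b of the B cell receptor were higher in spleen, at 867 and 737 CPM against 119 and 97.8 CPM. The E protein sum was level.

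Per length, the order of the 9 genes changed between the libraries. In bone marrow it ran from Tcf3 at 78.9 RPKM through Id2 (66.3), Tcf12 (25.5), Tcf7 (14.5), Id1 (14.3), Lef1 (10.4), Id3 (10.3) and Tcf4 (8.45) to Tcf7l2 (1.62). Tcf7 and Id1, Lef1 and Id3, and Id3 and Tcf4 were neighbours whose counting intervals overlapped. In spleen Tcf7 stood first at 165 RPKM, ahead of Id2 (145), Tcf3 (77.2), Id3 (39.2), Lef1 (31.8), Tcf12 (22.5), Tcf4 (13.3), Tcf7l2 (4.36) and Id1 (2.79). There the intervals of Tcf7l2 and Id1, and of no other neighbours, overlapped. Tcf7 stood behind Tcf3, Id2 and Tcf12 in marrow and ahead of them in spleen, while Id1 stood last in spleen.

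Among measured genes, those nearest to each called member in level across the 2 libraries were found by Euclidean distance on log2(CPM + 1). For Tcf7 they were Filip1l, Ltb and Gimap8, at distances of 0.21, 0.27 and 0.33. For Lef1 they were Mylip, Zscan26 and Slfn8, and for Tcf7l2 Rasal2, Zfp937 and Zfp709. Id3 lay nearest to Sirpb1a, Prf1 and Slc15a3, Id2 to Pik3r5, Tnfaip3 and Pxk, and Id1 to Lrr1, Plekhg1 and Dscc1, at distances from 0.0412 to 0.0928. With 2 libraries such likeness is a description of level only.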

How the data were processed

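Macrophages sorted from bone marrow and from spleen of leukaemic mice gave 1 RNA-seq library each. The deposited tables give per gene, per the file headers, the count of its unique reads, its RPKM, its length and the percent of that length with reads. The deposited counts were whole numbers summing to the totals in the headers, and the deposited RPKM equalled count over length and total. Aligner, counting program, strand setting and build were not given in the sources used here. A gene absent from a table was given 0 reads. Genes were joined by Entrez identifier and named from RefSeq (GRCm38.p6), which matched 16379 of 16428. The 9 members matched by symbol and identifier, and none differed in length between the tables.

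Counts became CPM by TMM scaling in edgeR 4.0.16 under R 4.3.3 (marrow factor 0.977, spleen factor 1.02). On the scale of the differences, log2(CPM + 1), low genes appear to differ less than they do. Intervals of folds are exact conditional binomial, of levels exact Poisson and of shares exact Clopper-Pearson, at 95%, and they cover counting error only, since no molecular identifiers mark PCR copies. The measures were tested on simulated counts. No p-value was computed. Motifs were searched in RefSeq promoter windows, and annotation was taken from GENCODE M21. Members and gene lists were chosen with earlier results of these data known. Genes named were the members and their remaining family genes, up to 3 genes of widest difference on log2(CPM + 1) and the 1 of highest RPKM in each list, and the 3 nearest genes of each called member; not all of these are printed. Settings tried beside these were library totals, size factors of DESeq2 1.42.0, TMM factors without marker genes, pseudocounts of 0.1 and 5 CPM, the deposited RPKM, other floors and other fold rules.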

Additional observations from a re-analysis of the deposited data

How the results depend on the processing

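The calls of Tcf7, Lef1, Id1, Id2 and Id3 and their directions held under DESeq2 size factors, library totals, TMM factors without marker genes, both pseudocounts and the deposited RPKM. Tcf7l2 held its call under all of these except the pseudocount of 5 CPM, where its log2 difference was -0.93. That pseudocount, which by construction shrinks low genes, also moved Id1 to 1.29, Id3 to -1.46 and Tcf7 to -3.26. The 3 E proteins stayed within 2-fold and kept their sign under each of these settings. With a 4-fold rule, 1 member (Tcf7) instead of 5 was higher in spleen. With TMM scaling per kilobase the summed levels were 115 and 110 for E proteins, 93.1 and 183 for Id proteins and 27.2 and 197 for TCF/LEF factors, marrow first. Over all measured genes, 1832 were called towards marrow and 1898 towards spleen, against 1244 and 1210 with the 5 CPM pseudocount. With a floor of 10 CPM and 100 reads, over fewer genes, list medians turned sign for Wnt receptors (-0.55), Wnt ligands (1.71) and BMP genes (-0.15). The Wnt ligand value is that of Wls alone, the only gene of that list left. At that floor the medians of megakaryocyte markers and bHLH and LMO partners were 3.78 and 0.91. With the 5 CPM pseudocount the medians of NK, megakaryocyte, and endothelial and stromal markers lay within 2-fold (-0.98, 0.91 and 0.73). The erythroid median was 0.03, and -0.03 with library totals and -0.02 on deposited RPKM. No paired analysis was possible because each tissue had 1 library. Depth limits Id1 in spleen (21 reads) and Tcf7l1 most.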
